A study of Homo sapiens with 18 samples.

Results

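The cells are U251, a long-established line from a human glioblastoma, and DMSO is the solvent of the drug the study tested. The values described here are those of solvent-treated cells after 10 h against solvent-treated cells after 4 h, with 3 arrays at each time, so 6 of the 18 arrays of the series carry the comparison. All cells were grown in RPMI with 5% serum, and total RNA was hybridized to Affymetrix HG-U133 Plus 2.0 arrays. The other groups used here are DMSO at 18 h and the kinase inhibitor enzastaurin at 4 and 10 h, again with 3 arrays each. The dose is not given in the labels. The enzastaurin arrays at 18 h were in no comparison. They entered the estimate of the spread and the mean levels that decided which probe sets and genes were used. Whether replicates came from separate cultures is not in the labels, so every p value reflects the spread among these arrays alone, and that spread may be technical. No sample from before 4 h was analysed here, and time with DMSO, time in culture and harvest cannot be told apart.

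Transcript levels of cultured cells follow the growth factors, nutrients and oxygen around them, and mRNAs of cytokines, cyclins and feedback inhibitors are short-lived and follow such signals fastest. Glioblastoma cells are known for secreting matrix proteins, interleukin 8 and urokinase, a protease that loosens the matrix around migrating cells. A change over time in solvent alone is also the background on which any effect of a drug in such a time course is read.

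A gene's level is the deposited array intensity of its brightest probe set, and a change is the difference of group means of log2(intensity + 16). A gene passed when its Benjamini-Hochberg adjusted p from limma was under 0.05. The 12376 genes tested were those above the median level of all probe sets, an intensity of 102. Trimmed array means had been scaled alike by the authors, but array medians lay between 110.8 and 123.7 at 4 h and between 105.2 and 109.3 at 10 h and did not overlap. Arrays of the same group correlated at 0.9733 or more in these 2 groups.

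Between 4 and 10 h, 2243 genes passed, which is 18.1% of those tested. Of these, 1425 were higher at 10 h (11.5% of all genes) and 818 were lower (6.61%). Most changes were small, with a median size of 0.43 on the log2 scale among the higher and 0.41 among the lower genes, and 93 genes (0.751%) changed at least 2-fold, 47 upward (0.38%) and 46 downward (0.372%). In 4465 genes (36.1%) the 3 arrays at 10 h all lay beyond the 3 at 4 h, among them 2200 of the genes that passed. Bright genes passed more often than dim ones, 3.36% in the dimmest 25% of genes and 27.1% in the brightest 25%, where the median standard errors were 0.295 and 0.0787. The number of higher genes was 923 without the second 10 h array and 940 without the first 4 h array. The balance of directions depended on the scaling: with each array's median subtracted, the median change of all genes moved from 0.01 to 0.12, and 1622 genes were higher and 266 lower, so the share of higher genes among calls went from 63.5% to 85.9%.

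**Figure D1:**
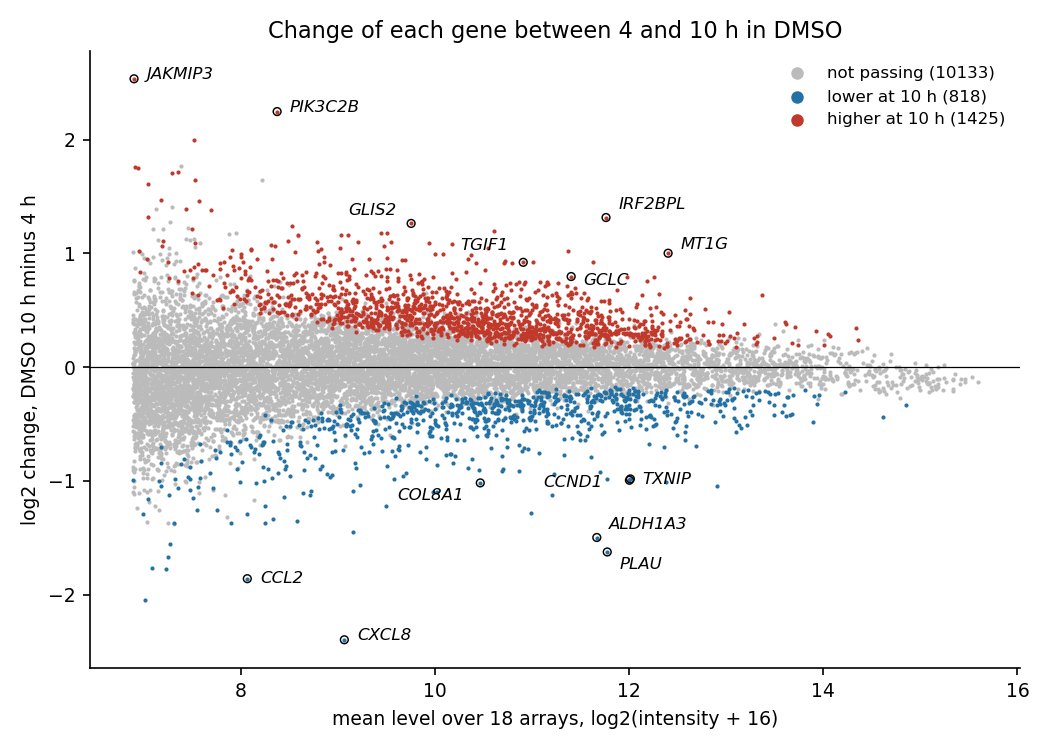
Each point is 1 of 12376 genes, with its mean level over 18 arrays on the x axis, as log2(intensity + 16), and its log2 change from 4 to 10 h in DMSO on the y axis. Red points (1425) passed as higher and blue points (818) as lower, and the widest changes are mostly those of dim genes, with CXCL8, PLAU, ALDH1A3, IRF2BPL and MT1G among the brighter exceptions.

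These promoters are shown because their genes changed and because short sequences known to bind the regulators of the groups described here lie in them. Each is the 250 bases before the start site on the gene's own strand, from RefSeq's GRCh38.p14, with the matches named after the sequences in capitals.
CXCL8, chr4:73740319-73740568, plus strand: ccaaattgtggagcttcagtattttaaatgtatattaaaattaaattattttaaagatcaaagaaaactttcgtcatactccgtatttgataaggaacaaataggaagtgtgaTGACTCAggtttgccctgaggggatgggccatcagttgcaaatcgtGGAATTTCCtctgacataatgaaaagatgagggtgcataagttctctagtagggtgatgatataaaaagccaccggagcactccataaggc
TXNIP, chr1:145996580-145996829, minus strand: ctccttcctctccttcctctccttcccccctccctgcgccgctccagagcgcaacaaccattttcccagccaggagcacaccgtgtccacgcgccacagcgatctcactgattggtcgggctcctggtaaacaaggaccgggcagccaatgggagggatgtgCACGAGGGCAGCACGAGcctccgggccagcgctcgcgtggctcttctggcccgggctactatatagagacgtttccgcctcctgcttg
ARRDC4, chr15:97960453-97960702, plus strand: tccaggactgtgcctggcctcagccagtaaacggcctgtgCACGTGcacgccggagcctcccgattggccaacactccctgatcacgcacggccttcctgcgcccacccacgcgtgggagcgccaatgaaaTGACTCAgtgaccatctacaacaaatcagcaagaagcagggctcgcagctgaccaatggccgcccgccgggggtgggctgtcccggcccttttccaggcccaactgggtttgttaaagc
MT2A, chr16:56608334-56608583, plus strand: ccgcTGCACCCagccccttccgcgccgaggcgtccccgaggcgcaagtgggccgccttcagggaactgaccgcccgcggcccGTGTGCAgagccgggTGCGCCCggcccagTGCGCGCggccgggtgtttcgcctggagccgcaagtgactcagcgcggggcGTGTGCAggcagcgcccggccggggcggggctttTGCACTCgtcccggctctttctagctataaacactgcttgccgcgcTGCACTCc
ASNS, chr7:97872409-97872658, minus strand: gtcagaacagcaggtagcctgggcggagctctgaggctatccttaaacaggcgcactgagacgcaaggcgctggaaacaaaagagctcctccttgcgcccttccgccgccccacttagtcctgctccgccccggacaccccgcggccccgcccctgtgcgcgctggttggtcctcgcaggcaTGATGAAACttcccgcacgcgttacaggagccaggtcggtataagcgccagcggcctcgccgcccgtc
Both strands of 34941 promoters of this length were searched. In CXCL8 the capitals mark the AP-1 motif TGACTCA, 137 bases before the start and present in 4.22% of promoters, and the NF-kB-type motif GGAATTTCC, 91 bases before it and present in 0.415%. TXNIP holds a carbohydrate response element, 2 copies of CACGNG with 5 bases between them, at 88 bases, which 0.0458% of promoters hold. ARRDC4, its relative, has the E-box CACGTG at 210 bases (6.32% of promoters) and TGACTCA at 119. MT2A has 7 matches to the metal response element core TGCACNC or TGCGCNC, of which 24.8% of promoters hold at least 1, and ASNS has TGATGAAAC, the amino acid response element, at 68 bases (0.197%). The metal core also has 1 match each in CXCL8 and TXNIP and 2 each in ARRDC4 and ASNS, and MT2A holds TGACTCA at 104 bases; none of these is marked by capitals, although 1 in ARRDC4 overlaps the E-box. CCAAT, in 32.0% of promoters, matched 2 times in TXNIP and 3 times in ARRDC4 and is not marked. These matches describe the letters only. TXNIP and ASNS have 2 entries each in the table, and the first is shown. CCL2, MT1G and HMOX1 had no entry.

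The widest fall of all genes was that of CXCL8, which encodes interleukin 8, a chemokine that attracts neutrophils and promotes vessel growth. CXCL8 read 1694.9, 1418.2 and 1398.8 at 4 h and 304.8, 224.1 and 292.2 at 10 h. The lowest 4 h array was more intense than every 10 h array by a wide margin, and the log2 change was -2.40 (SE 0.22, adjusted p = 4.5e-07). CCL2, the monocyte chemoattractant, read 583.6, 669.6 and 437.9 at 4 h and 95.2, 108.4 and 265.8 at 10 h, a change of -1.86 (SE 0.32, adjusted p = 0.00051). The groups did not overlap, although the third 10 h array was well above the other two.

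Urokinase showed the smallest p value among the named genes. PLAU was at 7563.5, 6808.5 and 7175.2 at 4 h and at 2228.1, 2283.7 and 2438.8 at 10 h, with a log2 change of -1.63 (SE 0.079, adjusted p = 9.3e-11) and no overlap. Its receptor PLAUR fell by 0.49 (adjusted p = 0.00016), from 5583.1 to 5693.1 at 4 h down to 3702.2 to 4236.9 at 10 h. Among 15 proteases and inhibitors tested 3 passed, all lower, against 6.61% of all genes. TIMP1, an inhibitor of matrix metalloproteases and the third of them, changed by -0.21 (adjusted p = 0.042), and its call was lost when any 1 of 5 arrays was left out (highest adjusted p 0.148) and with array medians subtracted (-0.10, adjusted p = 0.438).

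Of 19 NF-kB cytokine and feedback genes tested, 5 were lower (26.3%, against 6.61% of all genes) and 2 higher (10.5%, against 11.5%). The median change was -0.25 against 0.01 for all genes. The lower genes numbered 3 without any 1 of 4 arrays (the first and the third at 4 h, the first and second at 10 h), and none was higher without the third 10 h array. NFKBIA encodes the inhibitor IkB-alpha, itself induced by NF-kB, and read 1690.4, 1181.5 and 1693.0 at 4 h and 849.8, 883.6 and 899.4 at 10 h. It changed by -0.76 (adjusted p = 0.001), but with the mean over its probe sets, dim ones included, the value was 0.27 (adjusted p = 0.525). LIF, TNFAIP3 and IL1A were picked after their values were seen. LIF, an interleukin 6 family cytokine, and TNFAIP3, the ubiquitin-editing inhibitor A20, both fell by 0.47, with adjusted p values of 0.029 and 0.041 that became 0.164 and 0.153 with array medians subtracted. On the other side, the cytokine IL1A rose by 0.60 (adjusted p = 0.024), from at most 150.5 to at least 221.3, or 0.54 (adjusted p = 0.214) over all its probe sets. LIF lost its call without any 1 of 4 arrays, TNFAIP3 of 5 and IL1A of 3, with adjusted p values of up to 0.138, 0.165 and 0.0801. TNFAIP8, an apoptosis regulator, was higher by 0.49 (adjusted p = 0.012), but without the third 10 h array its adjusted p was 0.0848, and over all its probe sets it was at 0.22 (adjusted p = 0.491).

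Extracellular matrix genes moved one way where they moved. Of 26 tested 13 were lower (50%, against 6.61% of all genes) and none higher (against 11.5%). Their changes ran from -1.02 to 0.00, and the median was -0.35. With array medians subtracted 5 were lower. COL8A1, a short-chain collagen made by vessel walls and gliomas, read 2649.9, 2824.8 and 2540.9 at 4 h and 1367.3, 1375.5 and 1194.9 at 10 h, a change of -1.02 (SE 0.085, adjusted p = 1.9e-07). The 10 h arrays lay far below every 4 h array. VCAN, the proteoglycan versican, went from 3854.2 to 4883.9 down to 2529.5 to 3132.5 and fell by 0.57 (adjusted p = 0.0011). COL5A1, a fibrillar collagen chain, fell by 0.43 (adjusted p = 0.001) and COL6A2, a chain of beaded-filament collagen, by 0.49 (adjusted p = 0.002), the latter at -0.15 (adjusted p = 0.547) over all its probe sets. COL13A1, a collagen anchored in the cell membrane, is not among the 26 genes of the list. It was at 661.9, 750.8 and 455.9 at 4 h and at 230.8, 226.5 and 229.1 at 10 h. Its log2 change was -1.35 (adjusted p = 3.2e-05), or -0.79 (adjusted p = 0.0623) over all its probe sets.

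Serum response factor and actin cytoskeleton genes behaved alike. Of 18 tested 9 were lower (50%, against 6.61% of all genes) and 1 higher (5.56%, against 11.5%), and the median change was -0.30. Subtracting array medians gave 7 lower and 1 higher. FHL2, a LIM-domain protein that shuttles between focal adhesions and the nucleus, read 5990.1, 6914.8 and 6872.2 at 4 h and 3659.7, 4140.3 and 4346.1 at 10 h, and changed by -0.70 (adjusted p = 2.7e-06). ACTN1, which cross-links actin filaments, went from 10688.8 to 11924.0 down to 7538.4 to 7905.2 and fell by 0.57 (SE 0.062, adjusted p = 4.1e-06). Groups did not overlap for either gene. TPM1, a tropomyosin, fell by 0.42 (adjusted p = 0.00021; -0.35 and 0.0987 over all its probe sets) and MYH9, non-muscle myosin heavy chain, by 0.46 (adjusted p = 0.0005).

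Of 23 genes of the TGF-beta pathway 2 were higher (8.7%, against 11.5% of all genes) and 4 lower (17.4%, against 6.61%), or 2 lower without the first array of either time and with array medians subtracted. PMEPA1, an induced inhibitor of SMAD signalling, read 11100.2, 11561.3 and 10977.5 at 4 h and 6344.4, 5076.0 and 4910.4 at 10 h, a change of -1.05 (SE 0.084, adjusted p = 1.1e-07). TGIF1, a homeobox repressor that binds SMADs, moved up over the same hours, from 1462.3, 1350.1 and 1637.7 to 2747.6, 2801.8 and 2895.5, a change of 0.92 (adjusted p = 3.8e-07). Both genes restrain the pathway, and their arrays were fully separated in opposite directions. FSTL3, a secreted activin antagonist, fell by 0.73 (adjusted p = 0.00094). Among 25 targets of YAP and TEAD factors, 6 were lower (24%, against 6.61% of all genes) and 3 higher (12%, against 11.5%). Without the first array of either time 1 was higher. Array medians subtracted left 2 lower, and the mean over probe sets gave 3 lower and 1 higher. IGFBP3, which binds insulin-like growth factors, fell by 0.61 (adjusted p = 0.0018), with -0.53 (adjusted p = 0.283) over all its probe sets. AJUBA, a LIM protein that restrains LATS kinases, rose by 0.42 (adjusted p = 0.00052), with 0.10 (adjusted p = 0.746) over all its probe sets.

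**Figure D2:**
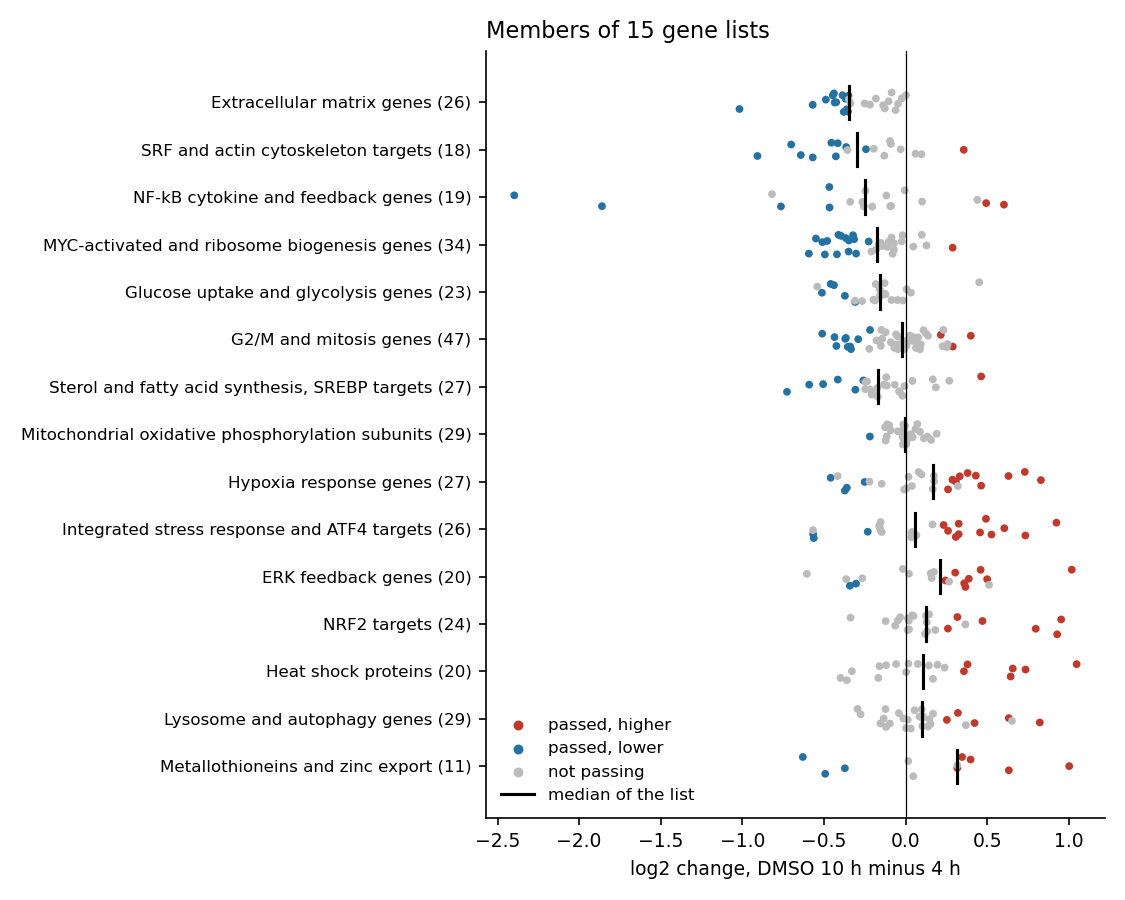
Each point is the log2 change from 4 to 10 h in DMSO of 1 tested member of the list named at the left, with the number tested in parentheses, and the black bar is the list's median. Matrix and actin genes lie mostly below 0, with medians of -0.35 and -0.30, oxidative phosphorylation subunits crowd around 0, and the hypoxia, ERK feedback, NRF2 and metallothionein lists have medians between 0.12 and 0.32.

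The glucose-regulated arrestins fell together. TXNIP encodes an inhibitor of thioredoxin and of glucose uptake whose transcription follows glucose through the carbohydrate response element shown above. TXNIP read 7237.2, 6281.3 and 6261.6 at 4 h and 3435.2, 3382.3 and 3073.2 at 10 h, a change of -0.99 (SE 0.078, adjusted p = 8.4e-08). ARRDC4, a related glucose-regulated arrestin, has no match to the carbohydrate response element in its printed promoter. It read 1903.1, 1607.7 and 1808.0 and then 1053.5, 890.3 and 904.8 (log2 change -0.89, adjusted p = 4.1e-06). For both, all 10 h arrays lay below all 4 h arrays. The other called gene of the 8 tested in this list, the zinc-finger repressor KLF10, was higher by 0.29 (adjusted p = 0.014), with an adjusted p of up to 0.0869 without either of 2 arrays.

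Glucose uptake and glycolysis genes had 5 of 23 lower (21.7%, against 6.61% of all genes) and none higher (against 11.5%), with a median of -0.16. Only 1 was lower once array medians were subtracted or without the third 4 h array. The lower genes numbered 2 without the first or second 4 h or the first 10 h array and 3 without the second 10 h array. PFKP, the platelet form of phosphofructokinase, kept its call in these fits and fell by 0.51 (adjusted p = 2.2e-05), from 6067.2, 6268.0 and 6782.4 to 4622.6, 4496.9 and 4253.8. SLC2A1, the glucose transporter GLUT1, read 2365.0, 2483.1 and 2422.0 and then 1396.5, 2147.4 and 1808.6. Its change of -0.46 (adjusted p = 0.022) became -0.35 (adjusted p = 0.0615) with array medians subtracted and -0.19 (adjusted p = 0.511) over all its probe sets, and its call was lost without any 1 of 3 arrays (adjusted p up to 0.138). Of the subunits of oxidative phosphorylation 1 of 29 was lower and none higher, or 3.45% called against 18.1% of all genes, with changes between -0.22 and 0.19.

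MYC, which drives ribosome production and growth, did not pass (1543.5, 1651.9 and 1856.7 at 4 h, 1626.0, 1523.8 and 1511.6 at 10 h; log2 change -0.11, 95% interval -0.34 to 0.11, adjusted p = 0.53). Its groups overlapped. Of 34 MYC-activated and ribosome biogenesis genes tested, 15 were lower (44.1%, against 6.61% of all genes) and 1 higher (2.94%, against 11.5%). Their median was -0.17, while with array medians subtracted 5 were lower and 1 higher. TSR1, a factor of small-subunit maturation, read 3457.7, 4214.5 and 4308.3 at 4 h and 2650.6, 2840.0 and 2869.0 at 10 h, a change of -0.51 (SE 0.077, adjusted p = 0.00014). MRTO4, needed for the large subunit, fell by 0.42 (adjusted p = 0.00023), and LYAR, a nucleolar growth regulator, by 0.55 (adjusted p = 0.0018).

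CCND1, which encodes cyclin D1 and couples growth factor signals to entry into the cell cycle, was among the most tightly measured changes. It read 5631.5, 5480.6 and 5740.2 at 4 h and 2844.5, 2808.9 and 2846.2 at 10 h, a change of -0.98 (SE 0.064, adjusted p = 5.4e-09). Its arrays at each time lay within a narrow band and the bands were far apart. CDKN1B, the CDK inhibitor p27, moved the other way, from 1744.4, 1967.7 and 1915.6 to 2625.4, 2801.4 and 2692.3 (0.53, adjusted p = 2.9e-05). CDK4, the partner of cyclin D1, fell by 0.32 (adjusted p = 0.00071), or -0.21 (adjusted p = 0.11) with array medians subtracted.

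Of 47 mitotic genes tested, 10 were lower (21.3%, against 6.61% of all genes) and 3 higher (6.38%, against 11.5%), with a median of -0.02. In fits without the first 4 h, the second 10 h or the third 10 h array 1 was higher. Array medians subtracted gave 3 lower and 4 higher. AURKA, the kinase of the spindle poles, read 11541.1, 10690.4 and 12347.1 at 4 h and 7881.4, 8233.0 and 8090.5 at 10 h, a change of -0.51 (adjusted p = 0.00016). UBE2C, the ubiquitin carrier of the anaphase-promoting complex, fell by 0.44 (adjusted p = 0.001), and PLK1, a kinase of mitotic entry, by 0.37 (adjusted p = 0.00046; -0.26 and 0.0593 with array medians subtracted). Of 44 replication genes 3 were higher and 3 lower, 6.82% each against 11.5% and 6.61% of all genes: MCM7, a helicase subunit, fell by 0.37 (adjusted p = 0.0015; -0.26 and 0.0871 with array medians subtracted) and FEN1, a flap nuclease, rose by 0.33 (adjusted p = 0.0029).

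**Figure D3:**
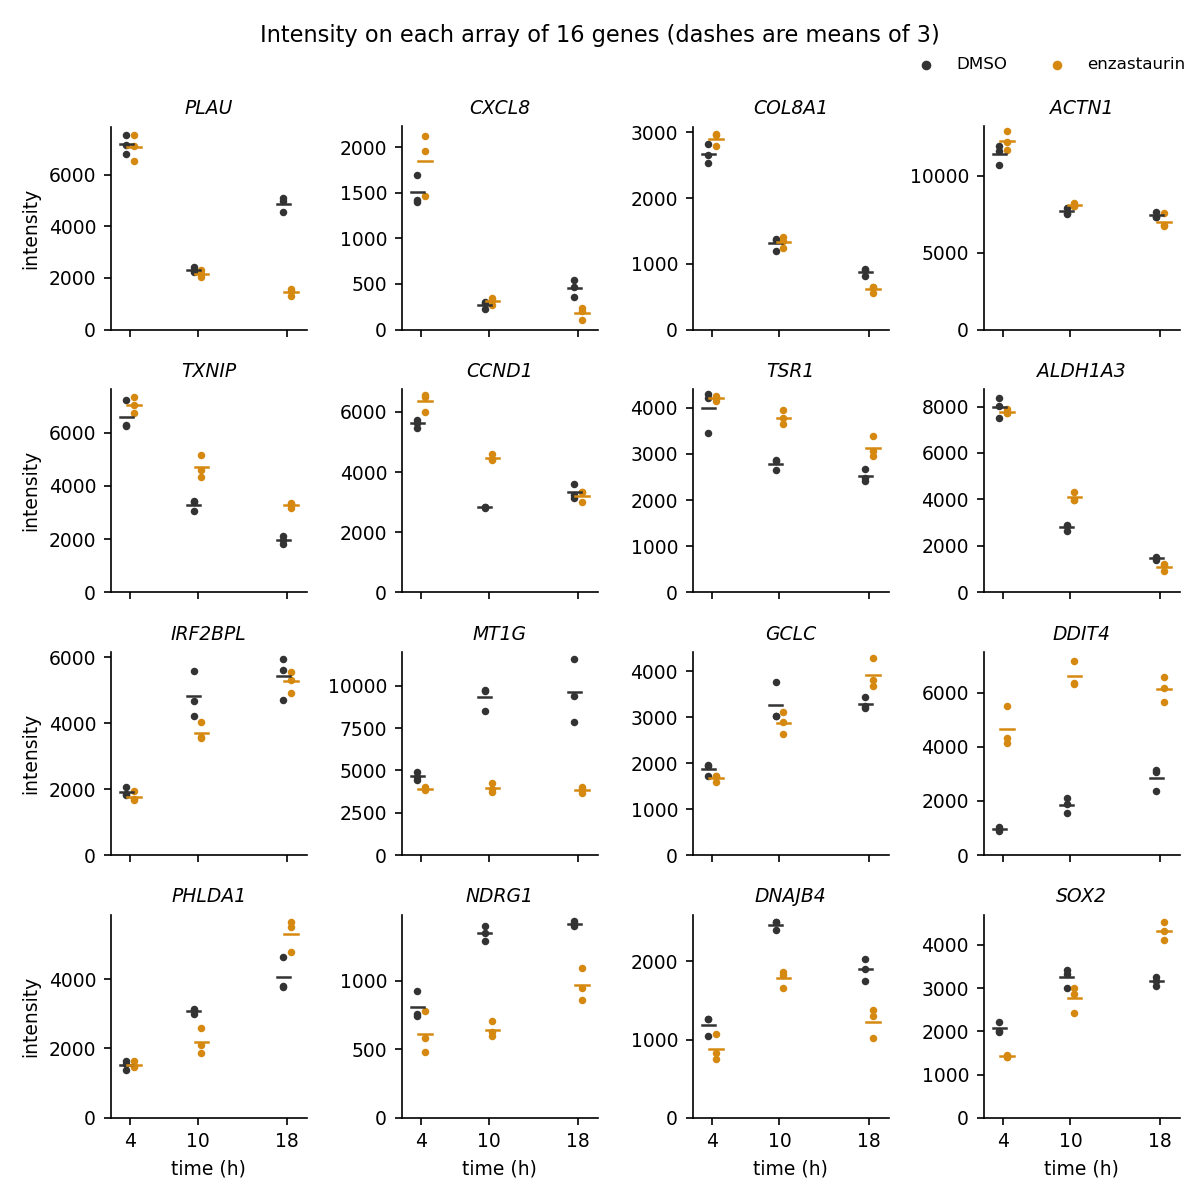
Each panel shows 1 gene, with time in hours on the x axis and intensity from 0 on the y axis; points are single arrays, dashes are means of 3, black is DMSO and orange is enzastaurin. In DMSO the 3 arrays at 10 h are separated from the 3 at 4 h in all 16 panels, PLAU regains part of its level at 18 h, TXNIP and ALDH1A3 go on down, and MT1G is higher at 10 h in DMSO while its enzastaurin arrays stay between 3714.4 and 4270.5 at 4 and 10 h.

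Of 26 targets of the integrated stress response and its factor ATF4, 11 were higher and 3 lower, against 11.5% and 6.61% of all genes, while the median was 0.06. The higher genes numbered 7 without the first 4 h, second 10 h or the third 10 h array, and 6 with the mean over probe sets. DDIT4, an inhibitor of the growth kinase mTORC1, read 1048.1, 872.7 and 975.4 at 4 h and 2125.1, 1877.7 and 1559.3 at 10 h, a change of 0.92 (SE 0.12, adjusted p = 3.8e-05). Enzymes that make serine, cysteine and asparagine moved with it: PSPH, phosphoserine phosphatase, rose by 0.73 (adjusted p = 0.00015), PHGDH, which starts serine synthesis and was also picked after its values were seen, by 0.49 (adjusted p = 0.00026), and CTH, cystathionine gamma-lyase, by 0.60 (adjusted p = 0.00011). CTH read 485.8, 521.6 and 541.4 and then 855.5, 723.4 and 802.6. ASNS, asparagine synthetase, whose promoter is printed above and which was picked after its values were seen, read 1608.1, 1582.1 and 1809.1 and then 2385.0, 2376.7 and 2440.9 (0.53, adjusted p = 0.00061; 0.15 and 0.696 over all its probe sets).

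Not all of these targets rose. SESN2, a leucine-sensing inhibitor of mTORC1, read 659.9, 700.4 and 723.4 at 4 h and 492.4, 413.1 and 488.7 at 10 h, a fall of the log2 value by 0.57 (adjusted p = 0.00098). PPP1R15A, the phosphatase subunit GADD34 that ends the response (picked after its values were seen), fell by 0.56 (adjusted p = 0.0025; -0.40 and 0.0518 over all its probe sets). ERN1, the sensor IRE1 of unfolded proteins, fell by 0.62 (adjusted p = 0.0029), with -0.10 (adjusted p = 0.674) over all its probe sets. Of 26 genes of ER chaperones and degradation 2 were higher (7.69%, against 11.5% of all genes) and 4 lower (15.4%, against 6.61%). The lower genes numbered 2 without the first or the third 4 h or the third 10 h array. With array medians subtracted 1 was lower, while the mean over probe sets gave 5 lower and none higher. The transporter SLC7A2, which carries arginine and lysine, showed 1 of the widest falls at low intensity, 197.9, 279.9 and 195.3 against 15.1, 21.3 and 145.9 (log2 change -2.05, SE 0.59, adjusted p = 0.02), and lost its call without any 1 of 3 arrays (adjusted p up to 0.1).

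Among 27 hypoxia response genes, 10 were higher (37%, against 11.5% of all genes) and 4 lower (14.8%, against 6.61%), with a median of 0.17. With array medians subtracted 9 were higher and none lower. The mean over probe sets gave 4 higher and none lower, with a median of 0.04. Without the first 4 h array 7 were higher. NDRG1, a stress-induced differentiation gene, read 762.0, 923.4 and 745.4 at 4 h and 1290.8, 1349.6 and 1403.9 at 10 h, a change of 0.73 (adjusted p = 0.00086). MXI1, a MAX partner that opposes MYC, read 308.3, 355.0 and 363.3 and then 606.5, 612.5 and 636.1 (0.83, adjusted p = 0.00032), and EGLN1, the oxygen-sensing prolyl hydroxylase PHD2, rose by 0.46 (adjusted p = 0.00011; 0.45 and 0.167 over all its probe sets). The lower genes numbered between 0 and 2 without any 1 of the 6 arrays, and included the glycolytic SLC2A1 and PFKFB4, a fructose bisphosphate regulator at -0.37 (adjusted p = 0.035; -0.26 and 0.206 with array medians subtracted), which lost its call without any 1 of 5 arrays (adjusted p up to 0.188).

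NRF2, the factor that senses oxidants and electrophiles, had 6 of 24 targets higher (25%, against 11.5% of all genes) and none lower (against 6.61%). Their median was 0.12. GCLC, the catalytic subunit of the enzyme that limits glutathione synthesis, read 1957.3, 1712.0 and 1941.5 at 4 h and 3016.4, 3033.7 and 3761.6 at 10 h, a change of 0.80 (SE 0.088, adjusted p = 4.5e-06). HMOX1, which degrades haem, read 1605.3, 1323.6 and 1993.5 and then 2818.3, 2843.1 and 3688.2 (0.93, adjusted p = 3.8e-05). In both genes the lowest 10 h array was above the highest 4 h array. OSGIN1, an oxidative stress-induced growth inhibitor, rose by 0.95 (adjusted p = 0.0015) and SRXN1, which repairs peroxiredoxins, by 0.47 (adjusted p = 0.00034).

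Metallothioneins bind zinc, and zinc transporters carry it across membranes. In this list of 11 tested, 5 were higher (45.5%, against 11.5% of all genes) and 3 lower (27.3%, against 6.61%). Its median of 0.32 was the highest of the 39 lists. The higher genes numbered 3 without the second array of either time and 2 without the third 10 h array. MT1G read 4435.8, 4590.5 and 4910.9 at 4 h and 8519.2, 9746.3 and 9706.9 at 10 h, a change of 1.001 (SE 0.099, adjusted p = 1.6e-06), or 0.41 (adjusted p = 0.392) over all its probe sets, and MT2A rose by 0.35 (adjusted p = 0.0066). Metallothionein transcripts are nearly identical, and probe sets may not separate the members. SLC30A1, the exporter that moves zinc out of the cell, read 3474.9, 3517.3 and 3852.1 and then 2686.2, 2442.2 and 1920.2 (-0.63, adjusted p = 0.00013; -0.34 and 0.0583 over all its probe sets). SLC39A10, a zinc importer, fell by 0.49 (adjusted p = 0.0027; -0.38 and 0.0588 with array medians subtracted).

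Heat shock proteins had 6 of 20 higher (30%, against 11.5% of all genes) and none lower (against 6.61%). With the mean over probe sets 3 were higher and 1 lower. DNAJB4, a co-chaperone of HSP70, read 1049.7, 1259.8 and 1267.0 at 4 h and 2507.3, 2506.9 and 2398.5 at 10 h, a change of 1.05 (adjusted p = 6.8e-06). HSPA4L, a nucleotide exchange factor, rose by 0.73 (adjusted p = 1.3e-05) and the small heat shock protein HSPB8 by 0.66 (adjusted p = 2.6e-06; 0.55 and 0.136 over all its probe sets). Among 29 lysosome and autophagy genes 5 were higher and none lower, 17.2% called against 18.1% of all genes, and 3 were higher without the first 4 h array or any 1 of the 10 h arrays. GABARAPL1, an autophagosome coat protein, read 433.1, 390.7 and 431.9 and then 770.5, 717.5 and 765.6 (0.82, adjusted p = 2.5e-05), and the autophagy receptor SQSTM1 rose by 0.63 (adjusted p = 1.7e-05; 0.30 and 0.161 over all its probe sets). Of 26 p53 and growth arrest targets, 6 were higher (23.1%, against 11.5% of all genes) and 2 lower (7.69%, against 6.61%), and 3 were higher without the first or the third 10 h array. RRM2B, a ribonucleotide reductase subunit, rose by 0.68 (adjusted p = 0.00085).

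Of the feedback genes of the ERK kinase cascade 8 of 20 were higher (40%, against 11.5% of all genes) and 2 lower, with a median of 0.21. This count rests on single arrays: it was 2 higher and 3 lower without the second 4 h array, 3 higher without the third array of either time and 4 without the first or second 10 h array, and quantile normalization gave 5 higher and 3 lower. PHLDA1, a pleckstrin-homology protein induced by growth factors, read 1367.6, 1544.2 and 1640.1 at 4 h and 2990.8, 3098.5 and 3145.0 at 10 h, a change of 1.02 (adjusted p = 2.6e-06). The ERK phosphatase DUSP5 rose by 0.46 (adjusted p = 0.011), and without the second 4 h array its adjusted p was 0.0535. The ephrin receptor EPHA2 fell by 0.34 (adjusted p = 0.0073; -0.23 and 0.198 with array medians subtracted), and the factor ETV5 changed by -0.30 (adjusted p = 0.018), with -0.20 (adjusted p = 0.245) after array medians were subtracted and -0.18 (adjusted p = 0.306) over all its probe sets. In the list of immediate early AP-1, EGR and ZFP36 genes 4 of 21 were higher and none lower, 19% called against 18.1% of all genes, which is near the background. It was 1 higher without the first or the second 4 h array, and 1 higher and 2 lower without the third 10 h array. KLF6, a zinc-finger factor among them, changed by 0.42 (adjusted p = 0.021; 0.25 and 0.43 over all its probe sets), and ZFP36L1, which destabilizes mRNAs, by 0.39 (adjusted p = 0.017), with -0.15 (adjusted p = 0.728) over all its probe sets. KLF6, ZFP36L1 and ETV5 lost their calls without any 1 of 4, 3 and 4 arrays, with adjusted p values of up to 0.096, 0.0974 and 0.0614.

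Several developmental pathways had a few members moving. Of 15 Wnt genes 5 were higher (33.3%, against 11.5% of all genes) and 1 lower (6.67%, against 6.61%). The higher genes numbered 3 without the third 4 h, the second 10 h or the third 10 h array. Among them was TCF7L2, a DNA-binding partner of beta-catenin, at 2297.5, 2424.8 and 2234.0 and then 3210.5, 3835.9 and 3593.9 (0.61, adjusted p = 7.6e-06). In the Notch list of 14, JAG1, a ligand, fell by 0.52 (adjusted p = 4.9e-05), whereas LFNG, a glycosyltransferase that modifies the receptors, read 1464.6, 1478.7 and 982.4 and then 2318.6, 2713.9 and 2477.8 (0.95, adjusted p = 0.00041; 0.55 and 0.0934 over all its probe sets). HEY1, a Notch and BMP target, rose by 0.66 (adjusted p = 0.00054). Of 16 BMP genes 4 were higher (25%, against 11.5% of all genes) and 1 lower, but 1 was higher without the second 10 h array and 2 without the first or the third 4 h or the third 10 h array.

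Sterol and fatty acid synthesis genes had 6 of 27 lower (22.2%, against 6.61% of all genes) and 1 higher, with 1 in each direction once array medians were subtracted. The lower genes numbered 2 without the third 4 h array and 3 without the second 10 h array. FADS2, a fatty acid desaturase, read 523.3, 614.6 and 589.5 and then 374.0, 327.6 and 322.7 (-0.73, adjusted p = 0.0025; -0.24 and 0.621 over all its probe sets). IDI1, an early enzyme of isoprenoid synthesis, changed by -0.42 (adjusted p = 0.0042; -0.31 and 0.0551 with array medians subtracted) and had 0.03 over all its probe sets, while SC5D, a late enzyme of cholesterol synthesis, rose by 0.46 (adjusted p = 0.00023; 0.16 and 0.682 over all its probe sets).

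Other regulators moved singly. NR3C1, the glucocorticoid receptor, rose by 0.58 (adjusted p = 3.2e-05) and its target SGK1, a survival kinase, fell by 0.75 (adjusted p = 7.2e-05). In the list of 11 tested that holds both, 3 were higher (27.3%, against 11.5% of all genes) and 1 lower (9.09%, against 6.61%). The median of that list was 0.27. SGK1 was its lower gene, while MT2A (0.35) and ERRFI1 (0.24) were higher with NR3C1. ERRFI1 lost its call without any 1 of 4 arrays (adjusted p up to 0.087). The clock repressor BHLHE40 rose by 0.63 (adjusted p = 0.00086). SRSF6, a splicing factor, read 7055.7, 6462.8 and 6552.4 and then 3975.7, 4135.7 and 4421.2 (-0.68, adjusted p = 1.9e-06), while SRPK2, a kinase of such factors, rose by 0.56 (adjusted p = 8.3e-05; 0.34 and 0.132 over all its probe sets). IFI44L, an interferon-induced gene, fell by 0.87 (adjusted p = 0.00024) in a list of 25 with 2 higher and 2 lower, 16% called against 18.1% of all genes. The tRNA synthetases had 3 of 17 lower (17.6%, against 6.61% of all genes) and none higher. So 17.6% were called against 18.1% of all genes, which is near the background. None of the 3 passed with array medians subtracted, and 1 was lower without the second array of either time.

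Among brighter genes outside these groups, ALDH1A3, which makes retinoic acid and is expressed in mesenchymal glioblastoma, read 8004.8, 7508.5 and 8369.5 at 4 h and 2863.4, 2912.6 and 2646.2 at 10 h, a change of -1.50 (SE 0.086, adjusted p = 1.1e-09). NRG1, a ligand of ErbB receptors, read 1205.8, 1061.2 and 895.6 and then 427.8, 274.7 and 441.2 (-1.45, adjusted p = 7.1e-05; -0.47 and 0.069 over all its probe sets). On the rising side IRF2BPL, a nuclear regulator linked to neurodevelopment, read 1815.7, 1858.8 and 2073.2 and then 4208.8, 5574.4 and 4660.2 (1.31, adjusted p = 7.1e-08). GLIS2, a zinc-finger factor of the GLI family, read 515.7, 505.9 and 486.0 and then 1192.0, 1360.5 and 1141.8 (1.26, adjusted p = 2.6e-06). In all 4 genes the groups were far apart, but separated arrays were a condition for naming them.

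The remaining wide changes were those of dim genes. PIK3C2B, a class II phosphoinositide kinase, read 141.7, 83.5 and 89.9 and then 425.8, 628.4 and 607.4 (2.25, SE 0.31, adjusted p = 6.2e-05). JAKMIP3 had the widest rise, 73.1, 11.3 and 46.3 against 301.1, 279.1 and 298.9 (2.53, SE 0.34, adjusted p = 4.3e-05). SALL2, a zinc-finger factor, read 86.0, 91.3 and 79.3 and then 242.5, 251.8 and 257.3 (1.39, adjusted p = 0.0024). BORCS5, which helps position lysosomes, rose by 1.75 (adjusted p = 0.00093), SPATA7, a ciliary protein, by 1.38 (adjusted p = 0.00029), and TMEM79 by 1.72 (adjusted p = 0.0007). CTNNBIP1, which blocks beta-catenin from TCF factors, fell by 1.77 (adjusted p = 0.015) and lost its call without either of 2 arrays (adjusted p up to 0.0933). The offset of 16 narrows the folds of such dim genes.

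Markers of the cells themselves were mixed. Of 25 glial and glioma markers 17 were tested, with 3 higher (17.6%, against 11.5% of all genes) and 4 lower (23.5%, against 6.61%). The lower genes numbered 2 without the third array of either time and 1 with array medians subtracted. With the mean over probe sets 1 was higher and 2 were lower. GFAP and S100B, defining astrocyte markers, were not among the 17, with no array of either time above 72.1 for GFAP or 14.2 for S100B. VIM, the filament vimentin, lay between 29111.3 and 38580.0. SOX2, a stem-cell factor, read 1990.5, 2013.3 and 2212.4 at 4 h and 2992.7, 3334.3 and 3411.1 at 10 h (0.64, adjusted p = 1.2e-05; 0.46 and 0.15 over all its probe sets). POU3F2, a neural factor that acts with it, rose by 1.08 (adjusted p = 0.00013; 0.64 and 0.107 over all its probe sets) and SOX9 by 0.53 (adjusted p = 0.003). The filament gene NES fell by 0.37 (adjusted p = 0.0027; -0.26 and 0.0627 with array medians subtracted). Of 30 markers of other cell types 25 were on the array and 8 of these were tested, of which none passed in limma; the summed intensity of the 25 was 2892.1 to 3229.2 at 4 h and 2411.9 to 2656.3 at 10 h, and their part in the results was not tested. A culture's RNA cannot tell fewer cells expressing a gene from less RNA in each cell.

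The 18 h arrays of DMSO cells show where the changes went, with the caution that they share the 10 h or the 4 h arrays with the first interval. From 10 to 18 h 658 genes passed (5.32%), 250 higher (2.02%) and 408 lower (3.3%), and from 4 to 18 h 2518 (20.3%). Of the 1425 genes higher at 10 h, 32 rose again to 18 h, 126 fell and 1267 did not pass. Of the 818 lower genes 70 fell again, 62 rose and 686 did not pass. The count for 10 to 18 h was 294 without the first 18 h array and 319 without the second 10 h array. It was 382 without the first 10 h array and 357 without the third 18 h array. Without the third 10 h array it was 458 and without the second 18 h array 588, so it depends on single arrays.

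Some secreted and NF-kB genes came back after 10 h. PLAU read 4542.8, 5104.6 and 4987.9 at 18 h, between its 4 h and 10 h levels, a rise of 1.07 from 10 h (adjusted p = 5.9e-08). CCL2 rose by 1.36 (adjusted p = 0.017) and NFKBIA by 0.80 (adjusted p = 0.0022), while CXCL8, at 543.5, 465.3 and 354.4, had a change of 0.69 that did not pass (adjusted p = 0.065). MYC read 2523.3, 2361.8 and 2412.4 at 18 h, 0.64 above 10 h (adjusted p = 0.0012). INSIG1, which holds back sterol-responsive factors, fell by 0.26 up to 10 h (adjusted p = 0.022; -0.15 and 0.429 with array medians subtracted) and then rose by 1.23 (adjusted p = 7.5e-09), to 2140.0, 2144.7 and 2013.9; the first of these calls was lost without either of 2 arrays (adjusted p up to 0.115).

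Other genes went on in the same direction. TXNIP fell by a further 0.74 (adjusted p = 1e-05) to 1824.9, 1962.4 and 2135.1, and ARRDC4 by 0.74 (adjusted p = 0.00012). ALDH1A3 fell by 0.93 (adjusted p = 1.9e-06), and DIRAS3, a growth-restraining RAS relative, fell by 1.10 and then by 1.23 (adjusted p = 4.1e-06 and 3.4e-06), from 2014.9, 1911.0 and 2004.1 over 1091.2, 877.4 and 802.7 to 345.4, 367.9 and 436.8. Of the matrix genes 9 of 26 fell in this second interval, against 3.3% of all genes. Among them were COL8A1, by 0.56 (adjusted p = 0.00038), and VCAN, by 0.80 (adjusted p = 0.00016). DDIT4 (0.62, adjusted p = 0.0052), PHGDH (0.39, adjusted p = 0.0068) and PHLDA1 (0.40, adjusted p = 0.034) rose again. HMOX1 instead turned: after its rise of 0.93 up to 10 h it fell by 0.63 to 18 h (adjusted p = 0.0044).

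The same 6 hours in enzastaurin cells use no array of the DMSO comparison, so they show how far these changes recur beside a drug. There 2125 genes passed (17.2%), 1268 higher (10.2%) and 857 lower (6.92%). Of the 1425 genes higher in DMSO, 665 (46.7%) were also higher in enzastaurin and 11 lower, and they make up 52.4% of the higher calls in enzastaurin. Of the 818 lower genes 407 (49.8%) were also lower and 9 higher, which is 47.5% of the lower calls there. The sign was the same for 1262 and 725 of them (88.6% each), and medians were 0.29 and -0.29 in enzastaurin against 0.43 and -0.41 in DMSO, where the genes had been chosen. Across the 12376 genes, which are not independent, the changes correlated at 0.4707.

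CXCL8 and PLAU fell alike in both. In enzastaurin CXCL8 read 2125.4, 1962.8 and 1467.4 at 4 h and 347.8, 325.0 and 273.4 at 10 h, and the difference between its changes was -0.09 (SE 0.30, adjusted p = 0.95). PLAU changed by -1.70, with a difference of -0.07 (SE 0.11, adjusted p = 0.87). A difference that does not pass does not show equality. In the matrix list 18 of 26 genes were lower in enzastaurin, against 6.92% of all genes, and no member's change differed between the treatments in limma.

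The change itself differed between the treatments for 174 genes (1.41%), 100 with a higher (0.808%) and 74 with a lower value (0.598%) in enzastaurin. Of the 174, 93 had also passed in DMSO (53.4%, against 18.1% of all genes). The difference subtracts that same DMSO change, so this overlap is partly built in. The count of 174 depends on single arrays and on the scaling. It was 67 without the first enzastaurin array at 4 h and 26 with array medians subtracted. Without any 1 of 10 of the 12 arrays it lay between 67 and 109. SESN2 read 991.7, 942.2 and 1085.2 and then 1663.6, 1889.2 and 1869.8 in enzastaurin, a rise against the fall in DMSO, with a difference of 1.40 (SE 0.15, adjusted p = 4.5e-05). LFNG went down with the drug, 1085.1, 945.7 and 802.9 to 690.3, 640.2 and 466.5, a difference of -1.60 (SE 0.23, adjusted p = 0.00091). SALL2 differed by -2.35 (adjusted p = 0.0054), the serine protease family member PRSS35 by -1.36 (adjusted p = 0.00055) and CILP, a cartilage matrix protein, by 1.52 (adjusted p = 0.049).

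Some of these differences were in stress and sterol genes. Of the ATF4 targets 20 of 26 were higher in enzastaurin between 4 and 10 h, against 10.2% of all genes. From DMSO 11 of them differed upward, against 0.808% of all genes. CTH was at 0.86 (adjusted p = 0.0011) and CEBPB, a leucine-zipper factor, at 0.71 (adjusted p = 0.00028). Of the sterol genes 11 of 27 were higher with the drug and 7 differed upward, against the same 10.2% and 0.808% of all genes. IDI1 differed by 1.30 (adjusted p = 3.2e-05) and INSIG1 by 1.16 (adjusted p = 1.2e-05). MT1G, which rose in DMSO, had a change of 0.02 with the drug and differed by -0.98 (adjusted p = 0.00091), and the exporter SLC30A1 differed by 0.81 (adjusted p = 0.0031). CCND1 fell in both, by 0.98 in DMSO and by 0.50 with the drug (difference 0.48, adjusted p = 0.0091).

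**Figure D4:**
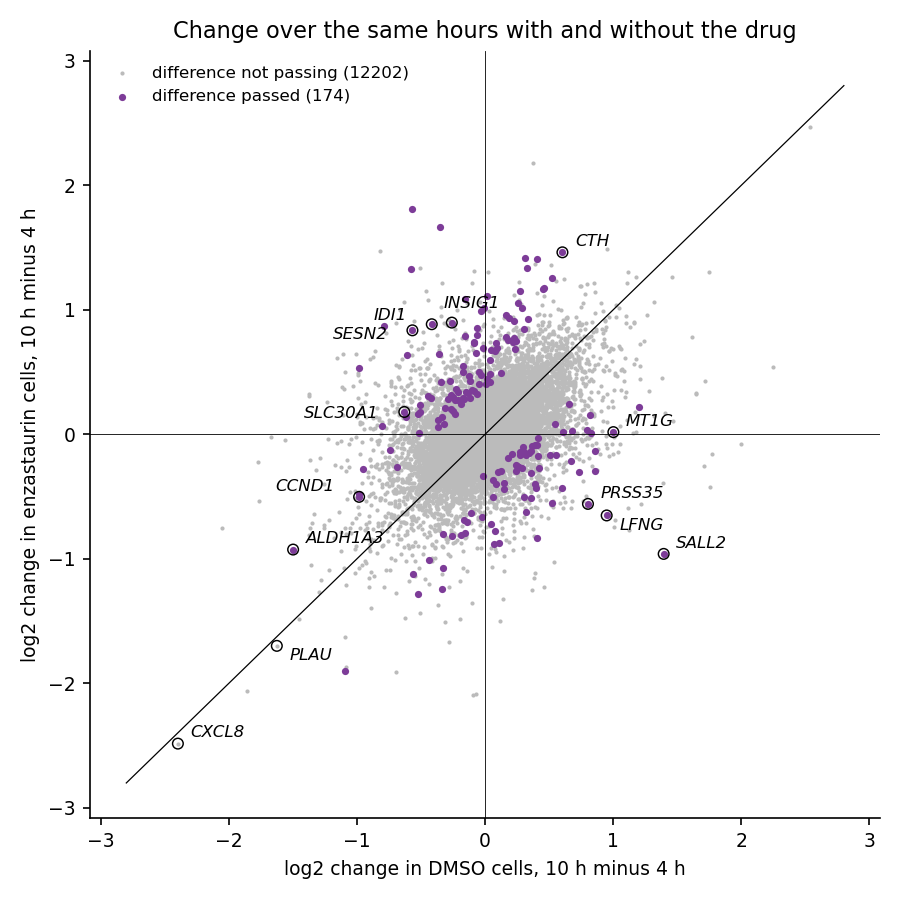
Each point is a gene, with its log2 change from 4 to 10 h in DMSO cells on the x axis and in enzastaurin cells on the y axis; on the diagonal the 2 changes are equal. Purple points are the 174 genes whose change differed between the treatments, CXCL8 and PLAU lie near the diagonal, and LFNG, SALL2 and PRSS35 have opposite signs, as have SESN2, IDI1 and INSIG1.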

How the data were processed

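Total RNA of 18 samples of U251 cells, in 6 groups of 3, was measured on Affymetrix HG-U133 Plus 2.0 arrays. The deposited values are linear intensities of 54613 probe sets, made by the authors with GCOS 1.2, per the submitters' processing notes. Their 2% trimmed means lie between 498.2 and 498.5, so arrays had been scaled. Of the probe sets, 41091 have 1 gene symbol in the platform annotation, 1801 several and 11721 none, and only the first entered. For each of 19775 genes the brightest probe set was kept, and 12376 genes at or above the median level were tested. No detection calls were used, and the number of arrays limits the precision.

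A model with 1 mean per group over all 18 arrays was fitted to log2(intensity + 16) with limma 3.58.1 in R 4.3.3 (empirical Bayes, trend on level), with Benjamini-Hochberg adjustment over the genes of a contrast. The script was tested on simulated data for DMSO at 10 against 4 h over 12376 genes, with 50 genes shifted at each size: those shifted by 0.3 (log2) were recovered in 24%, those by 0.5 in 58%, by 1 in 76% and by 1.5 in 94%, and 6 of 132 calls were false. Noise there was independent between genes.

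The 39 gene lists, with 776 tested genes, were written from general knowledge, and the comparison and the lists were chosen with earlier results of these data known. Named genes are the 15 largest rises and falls that passed with separated arrays, up to 4 passing members per list by adjusted p, MYC, and the 5 largest values among genes passing in the first interval and in the second interval or the treatment difference. ASNS, PHGDH, PPP1R15A, LIF, TNFAIP3 and IL1A were added after their values were seen. Some of the genes under the rule, among them pseudogenes, non-coding RNAs and dim genes, are counted without description. Alternatives changed 1 choice at a time: offset 1 or 64, no level filter or the brightest 25%, subtracted array medians, quantile normalization, every probe set or the mean over probe sets, a fit of only the groups compared, weights for arrays, no variance trend, the replicate number as a block, leaving out single arrays and at least a 2-fold change. Deviations from group means of same-numbered DMSO arrays correlated between -0.0334 and 0.0566. Over all genes no pairing by number was seen, but such values cannot exclude a pairing that touches few genes. Figures were drawn with matplotlib 3.10.9 in Python 3.11.15.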

Additional observations from a re-analysis of the deposited data

Results flagged for a closer look

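For 25 of the named genes the change from 4 to 10 h differed between enzastaurin and DMSO cells by limma's test of the difference (adjusted p under 0.05), out of 174 such genes (1.41%). Groups of 3 arrays were not tested for single outlying arrays. Each value is the enzastaurin change minus the DMSO change, on the log2 scale. All 25 had passed in DMSO, and the value subtracts that same DMSO change. Signs opposite to the DMSO change are therefore partly set by how the genes were picked.

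The value was below 0 for genes that had risen in DMSO: SALL2 (-2.35), LFNG (-1.60), PRSS35 (-1.36), the metallothioneins MT1G (-0.98) and MT2A (-0.50), the BMP inhibitor SMAD6 (-0.83), MXI1 (-0.82), GABARAPL1 (-0.66) and HSPB8 (-0.41). In SALL2, LFNG, PRSS35 and SMAD6 the drug-treated cells had a fall that passed, while MT1G was at 0.02 and MXI1 at 0.01 there.

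It was above 0 for genes that had fallen in DMSO, namely CILP (1.52), SESN2 (1.40), IDI1 (1.30), INSIG1 (1.16), SLC30A1 (0.81), ERN1 (0.76), AURKA (0.69), SGK1 (0.62), ALDH1A3 (0.57), CCND1 (0.48) and PLK1 (0.43). SESN2, IDI1 and INSIG1 rose with the drug, whereas CCND1 and ALDH1A3 fell there too, by 0.50 and 0.93. It was also above 0 for genes that rose in both: CTH (0.86), ASNS (0.73), DUSP5 (0.72), CEBPB (0.71) and the amino acid transporter SLC7A5 (0.51).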

How the results depend on the processing

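For the comparison of 10 with 4 h, counts within 1.5 times the reported 2243, 1425 and 818 came from offsets, level filters, quantile normalization, array weights, no trend and only the groups compared. Array medians subtracted left 266 lower; the mean over probe sets gave 1319 genes, 744 of them higher; every probe set on its own gave 3419, 1389 lower; a 2-fold minimum left 93, 47 higher and 46 lower. From 10 to 18 h the counts were 437, 345 and 39 with array medians subtracted, the mean over probe sets and a 2-fold minimum, and from 4 to 18 h they were 1536 with array medians subtracted, 4071 with every probe set and 164 with a 2-fold minimum. The difference between treatments went from 174 to 114 with no level filter, 26 with array medians subtracted, 68 with the mean over probe sets, 90 with no trend and 25 with a 2-fold minimum. Leaving out single arrays gave 1503 to 1820 changed genes, 923 to 1166 higher and 567 to 654 lower (923 without the second 10 h array and 940 without the first 4 h array), 294 to 588 from 10 to 18 h, 1991 to 2064 from 4 to 18 h and 67 to 154 for the difference. The replicate number as a block, although no pairing by number was seen over all genes, gave 2246 genes, 1424 higher and 822 lower. It ended the calls of PLAC4 and TIMP1 among 163 named genes. Of these 163, 31 lost their call with array medians subtracted, 58 with the mean over probe sets (7 of them turned in sign), 122 with a 2-fold minimum, 14 with no level filter, 14 with no trend, 11 with only the groups compared, 2 with quantile normalization and 25 to 31 without a single array, and none with another offset or array weights. The 7 went as follows: NFKBIA to 0.27, IFI44 to 0.0683, IDI1 to 0.0265, ZFP36L1 to -0.15, BHLHE41 to -0.17, BTG1 to -0.0375 and SRSF11 to -0.006. The cause was not tested; that mean includes dim probe sets. Low intensity limits precision, since the median standard error was 0.295 in the dimmest 25% of genes.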

Other observations

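A few of the widest changes belong to no group described so far and are values of dim genes. HSD17B1, which makes estradiol, read 60.1, 59.8 and 113.5 and then 354.3, 241.2 and 257.9 (1.71, adjusted p = 0.015). SPICE1, a centriole protein, rose by 1.24 (adjusted p = 2.8e-05), with 0.30 and an adjusted p of 0.553 over all its probe sets. THOC6, a subunit of the mRNA export complex THO, read 530.0, 439.9 and 415.8 and then 166.2, 211.4 and 146.1, a change of -1.33 (adjusted p = 4.1e-05). HSD17B1 lost its call without any 1 of 3 arrays (adjusted p up to 0.0611), and its value over all its probe sets was 0.59 (adjusted p = 0.328).

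AHRR, the repressor of the aryl hydrocarbon receptor, was at 126.7, 134.4 and 209.9 at 4 h, at 60.3, 76.9 and 30.8 at 10 h and at 134.7, 89.9 and 215.9 at 18 h. It changed by -1.29 (adjusted p = 0.0082) and then by 1.16 (adjusted p = 0.039), and it was the called gene among the 6 tested of that receptor's list; without 1 of the 6 arrays the first adjusted p was 0.052. ASPG, an asparaginase, had the same course, with changes of -1.26 (adjusted p = 0.025) and 1.36 (adjusted p = 0.04), and lost its first call without any 1 of 4 arrays (adjusted p up to 0.164).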
